A study of Mus musculus with 10 samples.

Results

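The genes described here are the mucin-type and terminal glycosyltransferases of mouse colon tumors, measured in 5 control (Wls flox/flox, titled Wls WT) and 5 Villin-Wls cKO tumors. They were chosen by gene name alone: every name of the Galnt, B3gnt, B3galt, B4galt, Gcnt, Fut, St3gal, St6gal, St6galnac and St8sia series, together with C1galt1 and C1galt1c1. This gave 53 of the 16875 gene names in the deposited table, and all 53 passed the filter on low values, a mean of at least 0.5 FPKM (fragments mapped to a gene, scaled by its length and by the size of the library) over the tumors. Of the 16875 names 16757 passed it. Counts by enzyme family cover only the genes present among these names.

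Tumors had been induced in C57BL/6 mice with the carcinogen azoxymethane and 3 cycles of dextran sulfate sodium (AOM/DSS), which injures the colon epithelium, in animals that were 6 to 10 weeks old at the start. Both groups are described as carrying the floxed allele of Wls, a membrane protein that cells need to release Wnt ligands. The sample titles name the controls Wls WT, and the study describes the control tumors as expressing Wls. In the Villin-Wls cKO mice the Villin-CreERT2 driver, which acts in intestinal epithelium and not in stroma, deleted Wls after 5 tamoxifen injections into mice with established tumors, and the study describes the sequenced tumors as 30 days after tamoxifen. The study describes control tumors as free of tamoxifen unless stated otherwise. Each sample is a macrodissected tumor with all its cell types, and the labels do not say that the tumors of a group come from separate mice, so that p-values measure only the spread between these tumors.

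Mucin-type O-glycans begin when a Galnt enzyme attaches N-acetylgalactosamine to a serine or threonine of a protein such as a mucin. C1galt1 or B3gnt6 then builds the core 1 or the core 3 structure, Gcnt enzymes add branches, and B3gnt, B3galt and B4galt enzymes lengthen the chains. Fucosyltransferases and sialyltransferases cap the ends, and in the colon such chains cover the secreted mucin Muc2 of goblet cells and the membrane mucins of absorptive cells. The name rule is wider than this pathway: B3galt6 and B4galt7 build the linker of glycosaminoglycans, Fut8 and St6gal1 act mainly on N-glycans, and B3gnt5, B4galt5, B4galt6, B3galt4 and St8sia1 act on glycolipids.

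Wls itself fell from 61.3 to 79.9 FPKM in the control tumors to 2.81, 11.6, 11.7, 3.61 and 2.03 FPKM in Villin-Wls cKO tumors 1 to 5 (log2 change -3.59 ± 0.39 SE, adjusted p = 0.000337, limma). The groups also differed in the sex-linked genes, since Xist was at 0.0366 to 0.42 FPKM in control and 439 to 701 FPKM in cKO tumors while Eif2s3y, on the Y chromosome, was at 30.4 to 46.6 and 0 to 0.138 FPKM. Genotype, sex of the mice and tamoxifen cannot be told apart in these tumors. The summed FPKM of 9 goblet cell markers was 2681, 9849, 12240, 4027 and 10324 in control tumors 1 to 5 and 23193 to 28661 in cKO tumors, with 4 of the 9 past the threshold as higher, which included Muc2. Spink4 made up most of each sum, at 1918 to 9586 FPKM in control and 19568 to 24052 FPKM in cKO tumors. Of the 9 markers, 8 had a change above 0 and Clca1 had one of -0.24. In cKO tumor 2, Tff3 (777 FPKM), Fcgbp (118 FPKM) and Zg16 (169 FPKM) lay within the control range and Clca1 (47.9 FPKM) below it. The remaining markers, Muc2, Agr2, Spdef, Atoh1 and Spink4, lay above that range in cKO tumor 2. All 9 pan-epithelial markers had a change above 0 (median 0.30 on the log2 scale) and 0 of 9 passed the threshold, with sums of 6584 to 9544 and 8233 to 11744 FPKM. cKO tumors 2 and 3 stood apart in stratified squamous markers, which summed to 1003 and 1314 FPKM in them, against 13.3 to 215 FPKM in the other 8 tumors. Of 7 T cell markers 4 passed the threshold as higher, with sums of 6.89 to 14.4 FPKM in control and 14.5 to 36.5 FPKM in cKO tumors. A change above 0 was found in 6 of the 7, and Cd4 had one of -0.05. Some of them were low, such as Cd8a at 0.0373 to 1.41 FPKM over the tumors. Of 8 colonocyte markers 2 rose (sums of 609 to 1332 and 1085 to 2042 FPKM), and of 6 B and plasma cell markers 1 rose (sums of 26.9 to 128 and 68.7 to 358 FPKM). Beside these marker counts, 6.12% of all genes tested were called higher, and in lists this short the count rests on single genes. None of the macrophage, neutrophil, fibroblast, endothelial or squamous markers passed. All 6 neutrophil markers still had a change above 0 (median 0.90), with sums of 227 to 775 FPKM in control and 591 to 1241 FPKM in cKO tumors. In bulk tumors fewer cells of a type and less RNA per cell cannot be told apart. How far the cell makeup enters the changes given here was not tested.

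Of the 53 genes, 13 (24.5%) rose and 1 (1.89%) fell at a limma adjusted p under 0.05, against 6.12% and 4.75% of the 16757 genes tested (10.9% in either direction). The 13 were Galnt3, Galnt7, Galnt10, Galnt12, Galntl6, C1galt1, B3gnt3, B3gnt5, B3gnt6, B3galt5, B4galt1, Fut4 and St3gal4, and the gene that fell was B4galt2. Of the 39 genes that did not pass, 27 had a change above 0 and 12 below it. The median log2 change was 0.32 over the 53 genes and 0.01 over all genes tested, and 40 of the 53 genes against 51.4% of all genes had a change above 0. Every cKO tumor lay above every control tumor in 9 of the genes (17.0%, against 5.33% of all genes), and every cKO tumor lay below every control tumor in 2, B4galt2 and B3gnt2 (4.76% of all genes, and 10.1% in either direction). The summed FPKM of the 53 genes was 1190, 1321, 1523, 1115 and 1395 in control tumors 1 to 5 and 1726, 1349, 1882, 1747 and 2022 in cKO tumors 1 to 5, so that cKO tumor 2 lay within the control range.

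**Figure D1:**
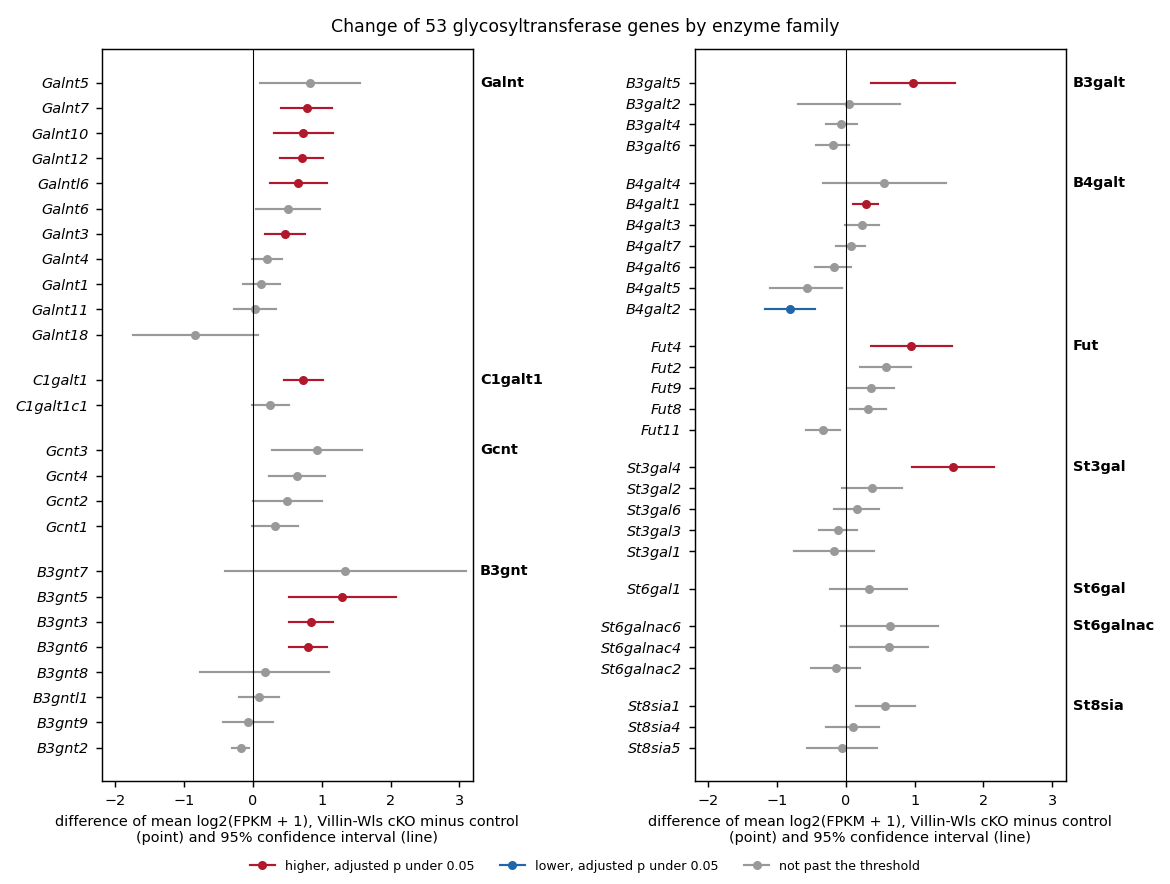
Change of each of the 53 genes, grouped by enzyme family; the x axis is the difference of mean log2(FPKM + 1), Villin-Wls cKO minus control, and lines are 95% confidence intervals. The 13 red genes and the 1 blue gene passed an adjusted p under 0.05, and most of the 39 grey genes also lie right of 0.

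The number of genes called depended on the reference used for scaling and on single tumors. When each tumor was scaled to its 9 pan-epithelial genes, a choice made after the data were seen, B3gnt3, B3gnt6 and St3gal4 (3 genes) remained higher, 6 genes were lower (B4galt2, B3gnt2, B4galt5, B4galt6, Fut11 and St3gal3), and the median became -0.01. Of all genes in that fit 2.7% were higher and 18.2% lower, and their median moved to -0.31. Krt19, 1 of the 9 pan-epithelial genes, shares all its values with Krt13 and Krt17, so that its own level is uncertain. It was highest in cKO tumor 3, at 4525 FPKM. Leaving out any 1 tumor gave 6 to 15 higher genes, with the lowest count, 6, without control tumor 2, control tumor 4 or cKO tumor 5, 7 without control tumor 1 or cKO tumors 1, 3 or 4, and 8 without control tumor 5. The higher calls over all genes moved as well, from 1026 with all tumors to 726, 712 and 819 in the 3 fits with the lowest count. In the fits without 1 tumor they ran from 695 (without cKO tumor 3) to 1178 (without control tumor 3). Leaving out both control tumors 1 and 4, the pair with the lowest goblet marker sums, gave 5 higher (St3gal4, B3gnt3, B3gnt5, B3gnt6 and C1galt1) and 0 lower genes, against 3.09% and 2.35% of all genes in that fit. Without cKO tumors 2 and 3, 12 were higher and 1 lower, against 3.95% and 2.69% of all genes in that fit. St3gal4, B3gnt3 and B3gnt6 passed the threshold in each alternative that tested them.

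**Figure D2:**
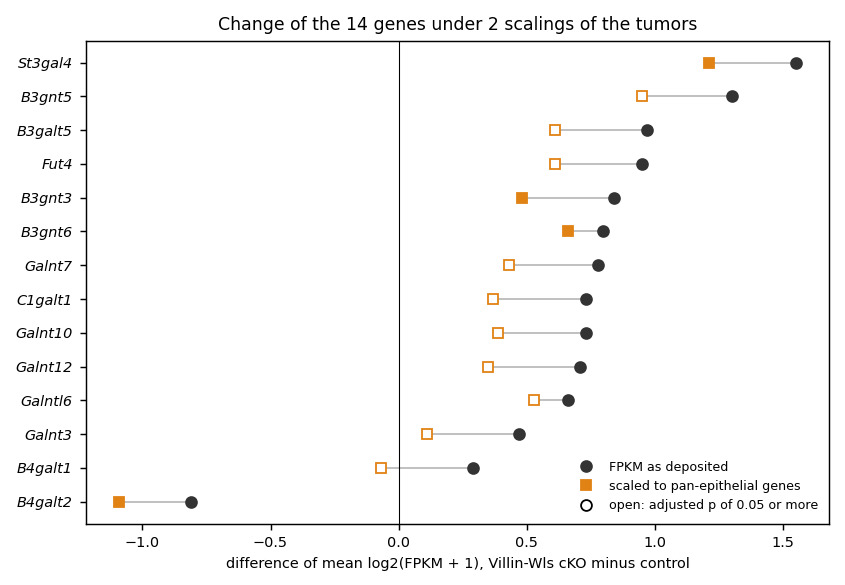
Change of the 14 called genes with FPKM as deposited (circles) and after scaling each tumor to its pan-epithelial genes (squares), as the difference of mean log2(FPKM + 1); filled symbols passed an adjusted p under 0.05. St3gal4, B3gnt3 and B3gnt6 keep filled squares on the right, B4galt2 on the left, and B4galt1 crosses 0 from 0.29 to -0.07.

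The start sites of these genes were examined in RefSeq promoter windows (GRCm38.p6), which cover 38 of the 53 genes and 12 of the 14 called genes in 14 windows. Windows of B3gnt3, B3galt5, Galnt7, Galnt10 and B4galt2 are printed because these genes passed the threshold and no more than 11 of the 120 bases before the start lie in an annotated exon. Each line gives the 120 bases before the start, 5′ to 3′ on the strand of the gene, with matches to the GC box GGGCGG or its reverse complement in capitals.
B3gnt3: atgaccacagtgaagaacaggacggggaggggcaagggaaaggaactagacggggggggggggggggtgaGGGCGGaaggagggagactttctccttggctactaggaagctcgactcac
B3galt5: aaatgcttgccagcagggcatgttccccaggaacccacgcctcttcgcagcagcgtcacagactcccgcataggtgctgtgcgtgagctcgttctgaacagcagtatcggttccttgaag
Galnt7: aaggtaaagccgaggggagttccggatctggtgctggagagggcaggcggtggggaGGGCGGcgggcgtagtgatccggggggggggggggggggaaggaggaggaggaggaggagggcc
Galnt10: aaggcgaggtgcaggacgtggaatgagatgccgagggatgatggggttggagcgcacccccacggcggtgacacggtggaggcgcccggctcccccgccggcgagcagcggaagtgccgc
B4galt2: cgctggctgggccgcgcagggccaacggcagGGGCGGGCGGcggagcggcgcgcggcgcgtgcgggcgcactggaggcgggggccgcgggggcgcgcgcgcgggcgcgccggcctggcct
They lie at chr8:71701801-71701920 (minus strand), chr16:96235681-96235800 (plus, the first of several B3galt5 windows), chr8:57653056-57653175 (minus), chr11:57645322-57645441 (plus) and chr4:117883477-117883596 (minus). Over the 250 bases before the start and on both strands, GGGCGG was present in 8 of the 14 windows of called genes and in 32.7% of all 32851 windows. The 38 genes, called or not, have 53 windows, and 26 of these held it. CTTTGAT, a TCF/LEF letter pattern, was in 0 of the 14 windows and in 3.21% of all, and the CDX pattern TTTATNG was in 0 of 14 and 9.81% of all. CCAAT was found in 1 of the 14, that of Galntl6, against 33.8% of all windows, and TATAAA also in 1 of the 14 against 12.4%. The patterns can overlap, a match here is a description of letters, and its absence says only that these letters are not in the window.

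The polypeptide N-acetylgalactosaminyltransferases, which start mucin-type chains, held the most calls: 5 of 11 Galnt genes rose (45.5%, against 6.12% of all genes tested). Of the 11, 0 fell and 10 had a change above 0 (median 0.51). Galnt7, which prefers peptides that already carry the sugar, was at 11.7, 15.1, 17.8, 12.0 and 14.8 FPKM in control tumors 1 to 5 and at 25.4, 16.7, 27.3, 26.2 and 31.7 FPKM in cKO tumors 1 to 5. Only cKO tumor 2 fell within the control range, and the log2 change was 0.78 ± 0.17 SE (adjusted p = 0.0144). Galnt10, another enzyme that adds to glycosylated peptides, was at 8.66, 12.7, 12.8, 8.50 and 15.1 FPKM in control and at 18.8, 13.5, 18.3, 22.7 and 26.1 FPKM in cKO tumors. Here too cKO tumor 2 was the 1 tumor inside the control range, and the change was 0.73 ± 0.20 SE (adjusted p = 0.0376), a call that was lost without control tumor 1, 2 or 4 or cKO tumor 1, 3, 4 or 5.

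Galnt12, an enzyme known for its expression in the digestive tract, was at 21.1, 22.3, 26.9, 17.6 and 27.2 FPKM in control tumors and at 38.7, 29.9, 41.6, 34.2 and 46.3 FPKM in cKO tumors. The groups did not overlap (log2 change 0.71 ± 0.14 SE, adjusted p = 0.0118), and the call held without any 1 tumor. Galnt3, one of the broadly acting starters, was at 35.7, 35.4, 52.5, 45.0 and 46.4 FPKM in control tumors and at 70.2, 60.3, 49.0, 64.1 and 54.1 FPKM in cKO tumors. Its highest control tumor, 3, lay above the lowest cKO tumor, also numbered 3, and the change of 0.47 ± 0.13 SE (adjusted p = 0.0464) passed in 2 of the 10 fits that left out 1 tumor. Galntl6 was low throughout, at 0.160, 0.307, 0.583, 0.0907 and 0.374 FPKM in control tumors and 0.836, 0.699, 0.743, 1.12 and 2.09 FPKM in cKO tumors. Its groups did not overlap and the mean was 3.62-fold higher, while the log2(FPKM + 1) change, which understates the change of low genes, was 0.66 ± 0.18 SE (adjusted p = 0.0446). The call of Galntl6 passed in 2 of 10 fits that left out 1 tumor. Galntl6 overlaps the protein-coding gene BC030500 on the opposite strand. The use of strand in quantification is not given, so that its own level is uncertain.

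Galnt1, the family member with the highest mean level, was at 58.1, 46.9, 60.0, 60.9 and 48.0 FPKM in control tumors and 69.1, 60.9, 54.9, 67.5 and 47.1 FPKM in cKO tumors. The groups overlapped (log2 change 0.12, 95% interval -0.15 to 0.39, adjusted p = 0.581). Galnt18 had the lowest change of the 53 genes, with 3.74 to 17.3 FPKM in control and 1.38 to 6.36 FPKM in cKO tumors, and it did not pass (-0.84, interval -1.75 to 0.08, adjusted p = 0.234). The other Galnt genes, Galnt4, Galnt5, Galnt6 and Galnt11, had values of 0.21, 0.83, 0.51 and 0.03 on the log2 scale with adjusted p from 0.14 to 0.927.

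Of the core 1 pair, the synthase C1galt1 rose and its chaperone C1galt1c1, which the enzyme needs to fold, did not pass. C1galt1 was at 30.8, 28.2, 30.7, 28.0 and 31.7 FPKM in control tumors and at 57.7, 39.0, 42.2, 64.6 and 51.8 FPKM in cKO tumors. The control tumors lay within a few FPKM of each other and each cKO tumor lay above them (mean 1.71-fold higher, log2 change 0.73 ± 0.13 SE, adjusted p = 0.00559, exact permutation p = 0.00794, the smallest that 252 arrangements of the tumors can give). The call held without any 1 tumor and without both control tumors 1 and 4, and was lost under the pan-epithelial scaling (0.37, adjusted p = 0.0948). C1galt1c1 was at 47.5, 45.2, 48.5, 48.9 and 50.4 FPKM in control tumors and 66.0, 46.9, 47.8, 75.2 and 56.6 FPKM in cKO tumors, where tumors 1, 4 and 5 were above the controls and tumors 2 and 3 within their range (0.25, adjusted p = 0.228). Without cKO tumors 2 and 3 it passed (0.44, adjusted p = 0.0306). It lies on the X chromosome and shares all its values with Cul4b, so that its own level is uncertain.

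None of the 4 branching Gcnt genes passed, although all 4 had a change above 0 (median 0.57). Gcnt2, which makes I branches and has the highest mean level of the family, was at 18.5, 9.72, 16.6, 9.87 and 7.53 FPKM in control and 18.2, 21, 18.8, 15.9 and 12.9 FPKM in cKO tumors. cKO tumors 2 and 3 were its highest tumors (0.50, adjusted p = 0.198). Gcnt3, the mucin-type enzyme that makes core 2 and core 4 branches, was at 7.63, 7.81, 7.14, 3.14 and 10.2 FPKM in control and 15.4, 7.69, 11.9, 16.6 and 21 FPKM in cKO tumors. cKO tumor 2 was again the only cKO tumor inside the control range (0.93, adjusted p = 0.0746), and without cKO tumors 2 and 3 Gcnt3 passed (1.25, adjusted p = 0.0395). Gcnt1 and Gcnt4, both core 2 enzymes, had changes of 0.32 and 0.64 (adjusted p = 0.208 and 0.0513).

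The B3gnt family contributed 3 of its 8 genes to the higher calls (37.5%, against 6.12% of all genes tested) and 0 to the lower ones (median 0.49). B3gnt6, the core 3 synthase, was at 0.291, 0.194, 0.320, 0.285 and 0.392 FPKM in control tumors and at 1.65, 1.13, 0.918, 1.64 and 1.07 FPKM in cKO tumors. It had the largest ratio of means among the 53 genes, 4.32, without overlap of the groups, yet stayed near 1 FPKM in cKO tumors (log2 change 0.80 ± 0.12 SE, adjusted p = 0.00276). B3gnt6 lies at chr7:98192417-98199481 (GRCm38, minus strand) and overlaps no other protein-coding gene of GENCODE M21. B3gnt3, which extends core 1 chains, was at 48.4, 59.8, 61.8, 39.8 and 55.5 FPKM in control tumors and at 88.3, 78.2, 110, 87.4 and 115 FPKM in cKO tumors. Its lowest cKO tumor, 2, was above its highest control tumor, 3 (1.81-fold, log2 change 0.84 ± 0.14 SE, adjusted p = 0.00462, exact permutation p = 0.00794). The gene spans chr8:71690756-71701789 on the minus strand.

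B3gnt5, which makes the lacto-series core of glycolipids and not mucin chains, was at 5.34, 20.3, 25.6, 13.8 and 25.7 FPKM in control tumors and at 42.0, 33.9, 46.4, 42.8 and 40.9 FPKM in cKO tumors. The cKO tumors were alike and the controls spread widely, with control tumors 1 and 4 lowest (2.27-fold, log2 change 1.30 ± 0.35 SE, adjusted p = 0.038). Its call was lost in 7 of the 10 fits without 1 tumor, those without control tumor 2 or 4 or any cKO tumor, and passed without both control tumors 1 and 4 (0.76, adjusted p = 0.00958). B3gnt7, an enzyme of poly-N-acetyllactosamine and keratan sulfate chains, varied most among control tumors, at 4.15, 35.5, 100, 9.29 and 74.5 FPKM, and was at 63.0, 32.4, 119, 52.8 and 112 FPKM in cKO tumors. Control tumors 1 and 4 were lowest here too, and the interval of the change ran from -0.40 to 3.09 (adjusted p = 0.318).

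B3gnt2, the family's most abundant entry and a main enzyme of poly-N-acetyllactosamine, went the other way at 197, 184, 179, 187 and 182 FPKM in control tumors and 166, 155, 166, 173 and 159 FPKM in cKO tumors. Every cKO tumor was lower, by a small step (log2 change -0.18 ± 0.053 SE, adjusted p = 0.0576), and the entry has the same values as Commd1, Gm12057 and Gm28048, so that its own level is uncertain. B3gnt2 passed as lower under quantile normalization (-0.31, adjusted p = 0.00665) and under the pan-epithelial scaling (-0.54, adjusted p = 0.0198). B3gnt8 was at 1.27, 3.78, 1.87, 2.50 and 3.16 FPKM in control and at 1.37, 8.15, 5.71, 1.06 and 1.69 FPKM in cKO tumors, where tumors 2 and 3 alone were above all others (0.17, adjusted p = 0.85). B3gnt9 and B3gntl1, at 1.21 to 5.23 FPKM in all tumors, had changes of -0.07 and 0.09.

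**Figure D3:**
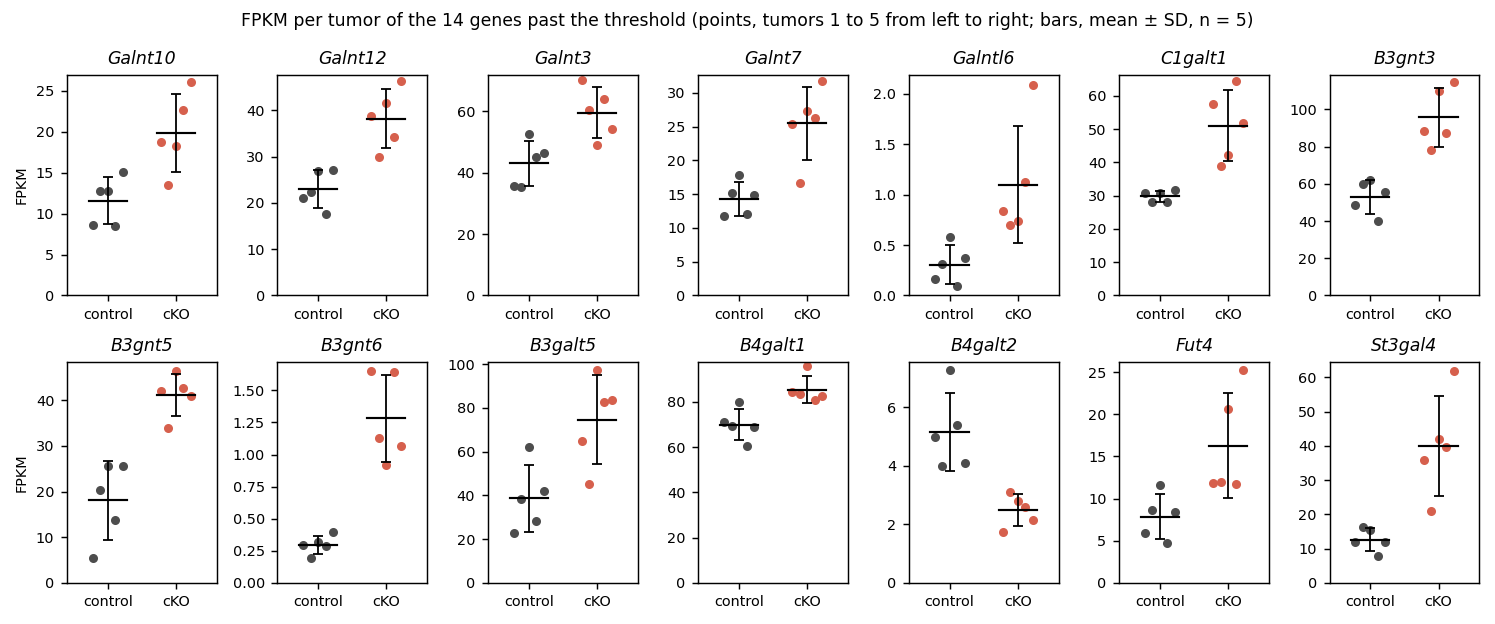
FPKM in each tumor of the 14 called genes, with 1 panel a gene and its own linear axis from 0; points are control tumors 1 to 5 and Villin-Wls cKO tumors 1 to 5 from left to right, and bars the mean ± SD (n = 5). The groups are apart in 10 of the 14 panels and overlap for Galnt3, Galnt7, Galnt10 and B3galt5.

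Among the galactosyltransferases, 1 of 4 B3galt genes rose (25%), and in the B4galt family 1 of 7 rose (14.3%) and 1 fell (14.3%). Over all genes tested 6.12% rose and 4.75% fell, and in families this small the share rests on single genes. B3galt5, which makes type 1 chains and extends core 3, was at 22.6, 38.1, 62.1, 28.2 and 41.9 FPKM in control tumors and at 65.0, 45.0, 97.3, 82.6 and 83.4 FPKM in cKO tumors. cKO tumor 2 lay below control tumor 3 (1.94-fold, log2 change 0.97 ± 0.27 SE, adjusted p = 0.0475), and the call passed in 2 of 10 fits that left out 1 tumor. B4galt1, the main enzyme of N-acetyllactosamine synthesis, was at 71.1, 69.4, 80.2, 60.6 and 68.8 FPKM in control tumors and 84.5, 83.5, 96.0, 80.7 and 82.5 FPKM in cKO tumors. The groups were apart by a narrow margin (1.22-fold, 0.29 ± 0.080 SE, adjusted p = 0.0451), and the call passed in 1 of 10 fits that left out 1 tumor and turned to -0.07 when tumors were scaled to pan-epithelial genes.

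B4galt2 was the 1 gene called lower, at 5.00, 4.00, 7.28, 5.39 and 4.10 FPKM in control tumors and 1.73, 3.10, 2.81, 2.60 and 2.13 FPKM in cKO tumors. The groups did not overlap (control 2.08-fold higher, log2 change -0.81 ± 0.16 SE, adjusted p = 0.011) and the call held without any 1 tumor, but without both control tumors 1 and 4 it was lost. It shares all its values with Ccdc24, which overlaps it on the same strand, and with Gm17114, so that the fall cannot be assigned to 1 of them. B4galt5 and B4galt6, the lactosylceramide synthases, did not pass. B4galt5 was at 19.6 to 37.0 FPKM in control and 11.1 to 28.0 FPKM in cKO tumors (-0.57, adjusted p = 0.159). B4galt6 was at 28.0, 23.8, 26.1, 27.5 and 22.9 FPKM in control and 27.0, 20.3, 18.0, 26.8 and 21.3 FPKM in cKO tumors, and it was the 1 gene of the 53 in which cKO tumors 2 and 3 were both below the other 8, as in 4.3% of all genes tested (-0.18, adjusted p = 0.366).

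B4galt3 and B4galt4 were at 0.23 and 0.56 on the log2 scale, with B4galt4 spread from 0.388 to 6.04 FPKM within the control group alone. The linker enzymes B3galt6 and B4galt7 had changes of -0.19 and 0.07 and together summed to 14.5 to 17.6 FPKM in control and 14.9 to 17.1 FPKM in cKO tumors. B3galt2 and B3galt4 were at 0.04 and -0.07, with intervals of -0.70 to 0.79 and -0.29 to 0.16.

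Of the 5 fucosyltransferases, Fut4 rose (20%, against 6.12% of all genes tested) and 4 did not pass. Fut4, which makes Lewis x type ends, was at 5.85, 8.68, 11.6, 4.74 and 8.43 FPKM in control tumors and at 11.9, 12.0, 20.6, 11.7 and 25.2 FPKM in cKO tumors. cKO tumors 1, 2 and 4 lay just above control tumor 3, and tumors 3 and 5 well above it (2.07-fold, log2 change 0.95 ± 0.27 SE, adjusted p = 0.0473), with the threshold passed in 1 of 10 fits that left out 1 tumor. Fut2, the secretor enzyme that adds alpha-1,2-fucose to mucins and the most abundant of the 5, was at 44.0, 39.4, 50.0, 39.1 and 43.2 FPKM in control tumors and 53.5, 44.7, 76.5, 86.7 and 71.6 FPKM in cKO tumors. cKO tumor 2 alone was inside the control range (0.58 ± 0.17 SE, adjusted p = 0.0505), and without cKO tumors 2 and 3 Fut2 passed (0.68, adjusted p = 0.0342). Fut8, the core fucosyltransferase of N-glycans, and Fut9 had changes of 0.32 and 0.36 (adjusted p = 0.118 and 0.176), and Fut11 one of -0.34 (adjusted p = 0.0812).

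Sialyltransferases, which close chains with sialic acid, gave 1 call among 12 genes (8.33%, against 6.12% of all genes called higher), and 8 of the 12 had a change above 0 (median 0.24). That gene, St3gal4, had the largest log2 change of all 53 genes, at 11.8, 16.3, 15.3, 7.72 and 11.8 FPKM in control tumors and 35.9, 20.9, 41.9, 39.5 and 61.8 FPKM in cKO tumors. It adds alpha-2,3-linked sialic acid to N-acetyllactosamine, a step of sialyl Lewis x synthesis. Every cKO tumor was above every control tumor, with cKO tumor 2 nearest to them (3.17-fold, log2 change 1.55 ± 0.27 SE, adjusted p = 0.00498, exact permutation p = 0.00794). St3gal4 lies at chr9:35046576-35119268 (GRCm38, minus strand). The 24 alternatives gave changes of 1.21 to 1.78 for it.

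The other St3gal genes did not pass. St3gal6, with overlapping activity toward N-acetyllactosamine and a higher level, was at 63.3, 57.0, 51.2, 45.3 and 54.9 FPKM in control tumors and 64.7, 45.4, 55.5, 59.5 and 82.7 FPKM in cKO tumors, with wide overlap (0.16, interval -0.17 to 0.48). St3gal1 and St3gal2, which act on core 1, had changes of -0.17 and 0.38, and St3gal3 one of -0.12. St6gal1, which caps N-glycans, was at 3.56, 7.46, 11.3, 6.88 and 8.79 FPKM in control and 7.78, 6.74, 9.19, 11.0 and 12.6 FPKM in cKO tumors, with control tumor 1 lowest (0.33, adjusted p = 0.464).

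St6galnac4, which forms disialylated core 1, was 1 of the 2 genes with a mean of at least 100 FPKM, beside B3gnt2, and was at 141, 208, 222, 115 and 208 FPKM in control tumors and 257, 172, 304, 238 and 429 FPKM in cKO tumors. Only cKO tumor 2 fell within the control range (0.63, interval 0.06 to 1.19, adjusted p = 0.15). St6galnac6 showed a like order, with 31.5 to 69.3 FPKM in control tumors, 32.7 FPKM in cKO tumor 2 and 78.3 to 117 FPKM in the other cKO tumors (0.64, adjusted p = 0.243), and St6galnac2 had a change of -0.15. The St8sia genes were under 2 FPKM in every tumor. St8sia5 was at 1.06, 0.485, 0.942, 0.351 and 0.417 FPKM in control and 0.328, 0.181, 1.52, 0.236 and 0.885 FPKM in cKO tumors (-0.06, adjusted p = 0.903). In St8sia4, at 0.676, 0.400, 0.853, 0.665 and 0.258 FPKM against 0.421, 1.07, 0.878, 0.849 and 0.244 FPKM, cKO tumors 2 and 3 were the highest of the 10 (0.10, adjusted p = 0.786), and St8sia1 was at 0.0879 to 0.529 and 0.416 to 1.81 FPKM (0.57, adjusted p = 0.0883).

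The tumors of a group were not equal across the 53 genes. Control tumors 1 and 4 were together the lowest of the controls in 19 of the 53 genes (35.8%, against 16.4% of all genes tested), and these were also the tumors with the lowest goblet marker sums. Control tumor 3 was the highest control in 22 genes (41.5% against 25.8%). Within the cKO group, tumor 2 was lowest in 26 of the 53 genes (49.1% against 19.7%), and it carried 11.6 FPKM of Wls. cKO tumor 3, which carried a like Wls level (11.7 FPKM) and high squamous markers as well, was lowest in 7 genes. Both tumors were above the other 8 in 3 genes (Gcnt2, B3gnt8 and St8sia4), and 6.67% of all genes had that pattern.

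**Figure D4:**
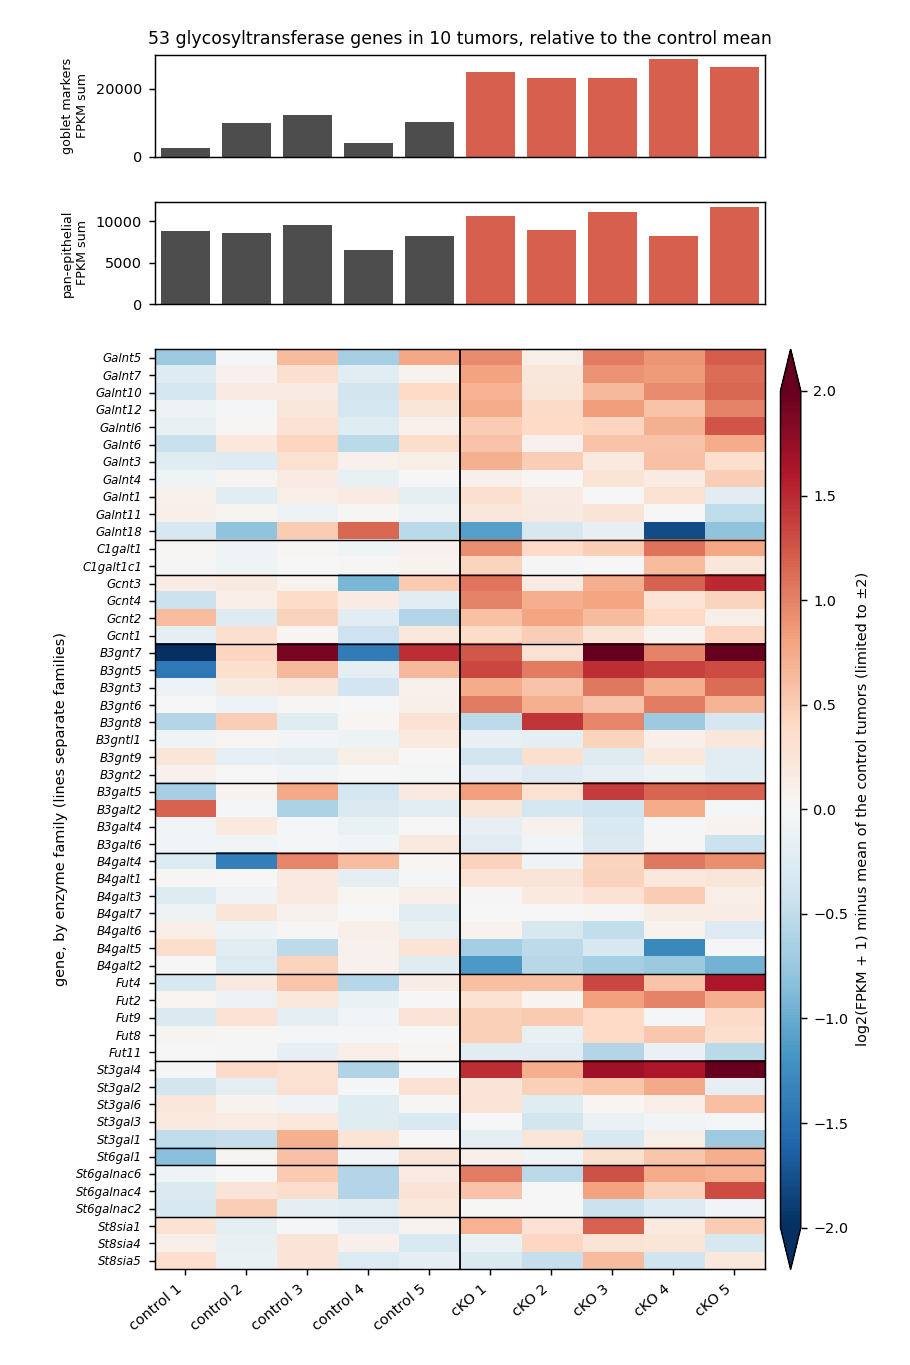
Heat map of the 53 genes in the 10 tumors as log2(FPKM + 1) minus the mean of the control tumors, on a scale limited to ±2, with lines between enzyme families, and above it bars of the summed FPKM of goblet and pan-epithelial markers per tumor. Control tumors 1 and 4 are low in 19 genes together and have the shortest goblet bars, and cKO tumor 2 is paler than the other cKO tumors in many rows. Spink4 makes up most of each goblet bar.

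The enzymes act on mucin cores and need activated sugars, and both were read in the same fit. Muc2, the secreted gel mucin, rose from 51.0, 114, 169, 60.8 and 153 FPKM in control tumors to 545, 248, 399, 461 and 549 FPKM in cKO tumors (2.1 ± 0.36 SE, adjusted p = 0.0047), with control tumors 1 and 4 lowest and cKO tumor 2 lowest of its group. The membrane mucins Muc4 and Muc1 rose by 2.39 and 1.46 on the log2 scale (adjusted p = 0.000292 and 0.0259), without overlap of the groups. Muc4 passed in all 10 fits that left out 1 tumor, and Muc1 in 6, with its call lost without control tumor 2 or 4 or cKO tumor 2 or 3. Muc13 and Muc3 did not pass (0.77 and 1.01, adjusted p = 0.0594 and 0.364).

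Of 29 genes that make or transport nucleotide sugars, 5 rose (17.2%, against 6.12% of all genes tested) and 0 fell. A change above 0 was found in 24 of the 29, and the median was 0.28, against 0.01 over all genes tested. Gfpt1, the entry enzyme of the hexosamine pathway, was at 25.6, 36.1, 59.5, 29.6 and 44.1 FPKM in control tumors and 83.6, 53.2, 88.8, 80.1 and 112 FPKM in cKO tumors. Only cKO tumor 2 lay within the control range (1.10 ± 0.24 SE, adjusted p = 0.0163). Gmds, which starts GDP-fucose synthesis, was at 75.0, 51.7, 71.0, 51.9 and 61.2 FPKM in control and 123, 78.1, 161, 142 and 182 FPKM in cKO tumors, without overlap (1.09 ± 0.21 SE, adjusted p = 0.00916). The sialic acid synthase Nans, the CMP-sialic acid transporter Slc35a1 and the phosphomannomutase Pmm2 rose by 0.85, 0.71 and 0.53 (adjusted p = 0.0475, 0.0339 and 0.0243), and each of these 3 calls was lost in at least 6 of the 10 fits without 1 tumor. Under the pan-epithelial scaling 2 of the 29 were higher, Gfpt1 and Gmds, and 3 were lower. Without both control tumors 1 and 4, 1 was higher (Gmds). Without 1 tumor the count ran from 2 (control tumor 2 or 4, or cKO tumor 3 or 5) through 3 (control tumor 1 or 5, or cKO tumor 1) to 10 (cKO tumor 2). Higher calls over all genes ran from 695 to 1178 in these fits, against 1026 with all tumors.

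Of 24 other capping and sulfation genes 19 were measured, and 3 rose (15.8%) and 1 fell (5.26%). Over all genes tested the shares were 6.12% and 4.75%, and the median change was 0.16 in the list and 0.01 over all genes. Chst4, a sulfotransferase of mucin-type chains, was at 1.5, 4.6, 9.91, 2.02 and 5.63 FPKM in control and 9.97, 8.36, 19.0, 18.5 and 15.8 FPKM in cKO tumors (1.55 ± 0.40 SE, adjusted p = 0.0309). A4gnt, which puts alpha-1,4-N-acetylglucosamine on gland mucins, was at 0.256 to 2.01 FPKM in control and 2.39 to 4.98 FPKM in cKO tumors, without overlap (1.05, adjusted p = 0.0329). Ggta1, the alpha-1,3-galactosyltransferase, was at 1.37 to 3.27 and 3.94 to 6.95 FPKM, also without overlap (0.98, adjusted p = 0.0148). Of the 10 fits that left out 1 tumor, Ggta1 passed in 10, Chst4 in 4 and A4gnt in 2. Gal3st4, a galactose sulfotransferase whose values are those of Gpc2 as well, was at 3.37 to 7.12 FPKM in control and 2.09 to 3.83 FPKM in cKO tumors (-0.75, adjusted p = 0.0412), and its call was lost without control tumor 2, 3 or 4 or cKO tumor 1, 2, 3 or 5. With any 1 tumor left out the higher count ran from 1 to 4, with 1 without control tumor 1, 2 or 4 or cKO tumor 3, 4 or 5, and without both cKO tumors 2 and 3 it was 0. Over all genes, fits without 1 tumor called 695 to 1178 higher, and that without both cKO tumors 2 and 3 called 655.

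**Figure D5:**
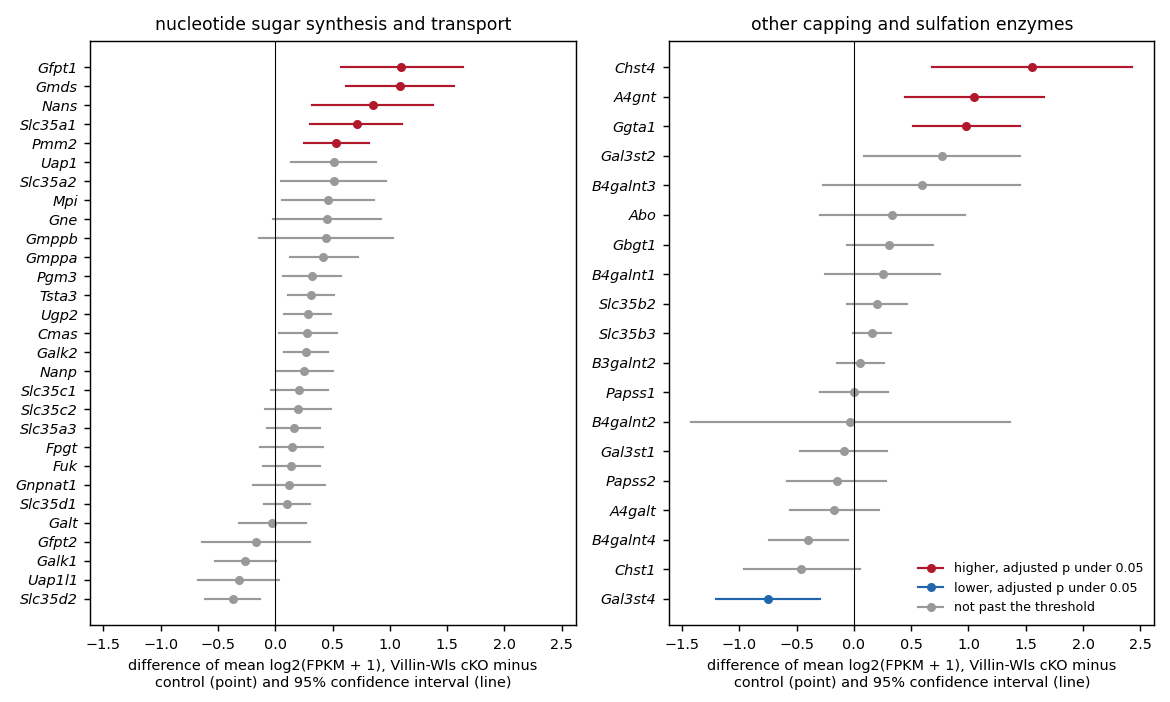
Change of 29 nucleotide sugar genes (left) and 19 other capping and sulfation genes (right) as the difference of mean log2(FPKM + 1), Villin-Wls cKO minus control, with 95% confidence intervals. Gfpt1 (1.10) and Gmds (1.09) lead the 5 red genes on the left, Chst4 (1.55) leads the 3 on the right, and Gal3st4 is the 1 blue gene.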

How the data were processed

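Poly(A) RNA of 10 macrodissected AOM/DSS colon tumors had been sequenced from stranded libraries. Per the labels and the study's methods, the authors used FastQC for read quality, TopHat2 2.1.1 for mapping to the GRCm38.p5 build, and Cufflinks 2.2.1 with Cuffdiff for quantification. The deposited values are FPKM per gene name and tumor, and the annotation release and the use of strand in quantification are not given in the sources used here. The 10 columns were matched to tumors by their labels, with 0 left over. FPKM sums per tumor were 1207683 to 1533885 and medians 11.3 to 12.2. Read counts are not part of these values, so depth is unknown and precision rests on 5 tumors a group. Of the 16875 names, 2419 fall into 1012 sets with identical values, which marks loci that were quantified together, and 12 of the 53 genes overlap another protein-coding gene of GENCODE M21.

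The groups were compared with limma 3.58.1 (R 4.3.3) on log2(FPKM + 1), with a minimum mean of 0.5 FPKM, an eBayes variance trend and no covariate, two-sided, with Benjamini-Hochberg adjustment over all 16757 genes tested. An adjusted p under 0.05 was a call. The fit was tested on simulated data. Exact permutation tests, two-sided, went through all 252 arrangements of the tumors with numpy 2.4.6 in Python 3.11.15. Tables were made with pandas 2.3.3, and matplotlib 3.10.9 drew the figures. Because the files hold FPKM, the Cuffdiff test of the study was not repeated.

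All genes of the name rule are named. Those called or without overlap, the most abundant of each family and those set apart in Villin-Wls cKO tumors 2 and 3 are given in full, with Wls, 5 mucins, sex-linked genes and at most 6 called genes of each other list. Gcnt3, B3gnt7, Galnt18 and St6galnac6 were chosen for fuller description after their values were seen. The nucleotide sugar list was set with a further gene that is not reported here. The members and lists were chosen with earlier results of these data known. Alternatives covered the pseudocount, filter, scaling, variance model, tumor weights, replicate block, identical entries and left-out tumors. The pan-epithelial scaling and the joint removal of control tumors 1 and 4 were added after the data were seen.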

Additional observations from a re-analysis of the deposited data

Results flagged for a closer look

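Single tumors stood far from the other 4 of their group, by Dixon's ratio of the gap to the range on log2(FPKM + 1), in 4 of the 136 groups of 5 tumors examined over named genes. Chance alone would mark about 1 in 20. B3galt6 was highest in control tumor 5 at 5.06 FPKM, against 4.09 to 4.19 FPKM in the other control tumors. B4galt1 was highest in Villin-Wls cKO tumor 3 at 96.0 FPKM, against 80.7 to 84.5 FPKM. Fut9 was lowest in Villin-Wls cKO tumor 4 at 1.80 FPKM, against 2.71 to 3.10 FPKM. Galnt6 was lowest in Villin-Wls cKO tumor 2 at 15.8 FPKM, against 22.5 to 25.6 FPKM.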

How the results depend on the processing

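The cause of these shifts was not tested. Scaling to pan-epithelial genes gave 3 higher and 6 lower genes of the 53 with a median of -0.01, 2 and 3 nucleotide sugar genes and 1 and 2 other capping genes, against 2.7% and 18.2% of all genes. Without both control tumors 1 and 4, 5 and 0 of the 53, 1 higher nucleotide sugar gene and 1 and 0 other capping genes were called. Leaving out 1 tumor gave 6 to 15 higher and 1 to 1 lower genes, 2 to 10 and 0 to 1 nucleotide sugar genes, and 1 to 4 and 0 to 2 other capping genes. In these fits 695 to 1178 of all genes were called higher and 507 to 808 lower. Without both cKO tumors 2 and 3, 0 and 0 other capping genes passed. Quantile normalization called 2 of the 53 and 1 nucleotide sugar gene lower. Over all genes it called 893 higher and 1125 lower, against 1026 and 796 in the main fit. A mean of at least 5 FPKM left 0 of the 53 lower, with B4galt2 not tested, and 1 and 0 other capping genes. An FPKM sum of 1000000 gave 11 higher nucleotide sugar genes and 0 lower other capping genes, eBayes without trend 1 lower nucleotide sugar gene, and tumor quality weights 1 lower nucleotide sugar and 0 lower other capping genes. The FPKM sum shifted all genes too, with 1373 higher, 410 lower and a median of 0.10. All genes gave 1011 higher and 768 lower calls without trend, and 1126 and 885 with quality weights. The median of the 53 stayed at 0.29 to 0.36 with 1 tumor left out.

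Of the 14 called genes, 3 passed in every alternative that tested them, 7 in every fit without 1 tumor, and 1 turned sign (B4galt1, -0.07). Signs turned in 19 of the 53 genes. Under the pan-epithelial scaling the values were B3galt2 -0.16, B3gnt8 -0.08, B3gntl1 -0.21, B4galt3 -0.12, B4galt7 -0.26, C1galt1c1 -0.10, Fut8 -0.04, Galnt1 -0.24, Galnt11 -0.30, Galnt4 -0.15, Gcnt1 -0.01, St3gal6 -0.20, St6gal1 -0.0024 and St8sia4 -0.02. An FPKM sum of 1000000 gave B3galt4 0.02 and B3gnt9 0.01, and quantile normalization B3galt2 -0.02. Without cKO tumors 2 and 3, B3gnt8 was -0.53, Galnt11 -0.10 and St8sia4 -0.07, and without control tumors 1 and 4, B3gnt8 was -0.01 and B3gnt9 0.05. With 1 tumor left out the values ran from -0.13 to 0.34 for B3galt2, -0.15 to 0.39 for B3gnt8, -0.16 to 0.01 for B3gnt9, -0.0032 to 0.15 for B3gntl1, -0.03 to 0.16 for Galnt11, -0.30 to 0.01 for St3gal1 and -0.23 to 0.04 for St8sia5.

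The replicate numbers were fitted as a replicate block and gave 9 higher and 1 lower of the 53 genes and 8 higher nucleotide sugar genes. Over all genes the block fit called 991 higher and 636 lower, against 1026 and 796 in the main fit. The labels do not say that the numbers pair the tumors. Same-numbered tumors correlated at 0.064, -0.087, 0.063, 0.10 and 0.16 after removal of group means, and 2 of 5 control tumors correlated best with their own number. These values cannot settle whether the numbers mark a pairing. Depth is unknown, and genes near or under 1 FPKM such as B3gnt6, Galntl6 and the St8sia genes may rest on few fragments.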
